A study of Mus musculus with 2 samples.

Results

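The genes described here encode the oxidative phosphorylation machinery of 2 genomes, the mitochondrial and the nuclear one. They were taken by symbol: the protein genes of mouse mitochondrial DNA (mt-Nd, mt-Co, mt-Cytb and mt-Atp) and the nuclear families Ndufa, Ndufb, Ndufc, Ndufs, Ndufv, Uqcr, Cox4 to Cox8 and Atp5. Of 103 matching genes, 101 had at least 50 UMIs (unique molecular identifiers, each counting 1 captured RNA molecule) over both libraries and are the members. They stand among 32285 genes in all and 15901 with at least 50 UMIs. The members are 13 mitochondrially encoded genes, of which 7 belong to complex I, 1 to complex III, 3 to complex IV and 2 to complex V, and 88 nuclear genes. The nuclear genes comprise 39 filed under complex I, 8 assembly factors caught by the prefix (Ndufaf1 to Ndufaf8), 8 of complex III, 16 of complex IV and 17 of complex V. Cox7b2 and Cox8c, known as testis isoforms, had 0 UMIs and are the matching genes left out. Ndufb1-ps is annotated as a non-coding gene, and Ndufa4 is filed by its name under complex I although its protein is now placed with complex IV.

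Complexes I, III and IV of the inner mitochondrial membrane pass electrons to oxygen and pump protons, and complex V uses the proton gradient to make ATP. Each of these complexes joins subunits made inside the mitochondrion with subunits made from nuclear genes and imported, so both genomes have to be expressed for it to be built. Endothelial cells are known to draw much of their ATP from glycolysis, while respiration through complex III has been shown in mice to be needed for lymphatic endothelial identity.

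The cells came from intradermal skin tumors of the mouse melanoma line B16F10-OVALBUMIN/VEGFC, which carries ovalbumin and the lymphatic growth factor VEGF-C. The Cre plus library is from Ifngr1iProx1 mice, in which a Cre named for Prox1, the transcription factor of lymphatic endothelium, acts on the interferon-gamma receptor gene Ifngr1. The Cre minus library is from Ifngr1WT mice, which carried the same tumor line. In both, 500K tumor cells were implanted, 3 tumors were pooled on day 15, and DAPI-, CD31+, CD45- cells were sorted for 3′ single-cell RNA sequencing. There was thus 1 library of pooled tumors per genotype. The differences between libraries have no replicate check and no test, and the intervals given in brackets below (95%) cover counting error only. The labels used here do not say when or how Cre was induced, which part of Ifngr1 is removed, or the age of the mice.

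The libraries held 2491 barcodes with 66704257 UMIs in Cre plus and 2502 barcodes with 76967583 UMIs in Cre minus, and 1 barcode sequence occurred in both. Barcodes with at least 500 genes, under 10% mitochondrial UMIs and under 50% haemoglobin UMIs were kept (1777 of Cre plus, 1549 of Cre minus) and sorted into classes by marker genes. In Cre plus the lymphatic endothelial class (LEC) held 686 barcodes, the blood endothelial class (BEC) 185, the melanoma class 452, the macrophage and monocyte class 34 and the pericyte and fibroblast class 29, while 361 stayed unassigned. In Cre minus these numbers were 172 LEC, 207 BEC, 764 melanoma, 56 macrophage and monocyte, 19 pericyte and fibroblast and 282 unassigned. The labels call the cells endothelial, yet in these barcodes the melanoma class was the largest in Cre minus, and the pan-endothelial markers summed to 2539 CPM (UMIs scaled to a common total per class) in Cre plus LEC and 2701 CPM in Cre minus LEC, against 135 and 124 CPM in melanoma barcodes. LEC markers reached 8015 CPM in Cre plus LEC and 9837 CPM in Cre minus LEC, and melanoma markers 90.2 and 170 CPM. Ifngr1, the targeted gene, had 30.0 CPM [27.4 to 32.8] in Cre plus LEC, against 54.2 CPM [43.7 to 66.4] in Cre minus LEC. Its level was 180 CPM in Cre plus BEC and 160 CPM in Cre minus BEC. Since the deleted part is not stated, a 3′ count does not by itself check the deletion.

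LEC differed between the libraries in depth and in Malat1, a long RNA kept in the nucleus. Cre plus LEC had a median of 18158.5 UMIs per barcode, against 6000 in Cre minus LEC, and 62.2% of Cre plus LEC barcodes were Malat1-rich (at least 0.1% of UMIs from Malat1), against 20.9% in Cre minus LEC. In BEC the medians were 15071 and 10660 UMIs and the Malat1-rich shares 76.2% in Cre plus and 66.7% in Cre minus. Cycling barcodes made up 26.7% of Cre plus LEC and 20.9% of Cre minus LEC. These values belong beside every genotype comparison below.

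The nuclear and mitochondrial members differ in how their genes are laid out, which is shown with sequences of some of them. For Cox6a1 and Atp5k, which carry matches to both of the motifs most shared by these genes, and for Ndufa4 and Cox7a1, the members furthest below melanoma in LEC, which carry none, RefSeq promoters (GRCm38.p6, 250 bases before to 50 after the gene start, 5′ to 3′ on the gene's strand) are given, with motif matches in capitals. The Ndufb3 promoter, not shown, carries no match either, and a link between matches and level was not tested. Cox6a1 lies at chr5:115348909-115349208 on the minus strand, Atp5k at chr5:108434350-108434649 on the minus strand, Ndufa4 at chr6:11907401-11907700 on the minus strand and Cox7a1 at chr7:30183921-30184220 on the plus strand.
Cox6a1: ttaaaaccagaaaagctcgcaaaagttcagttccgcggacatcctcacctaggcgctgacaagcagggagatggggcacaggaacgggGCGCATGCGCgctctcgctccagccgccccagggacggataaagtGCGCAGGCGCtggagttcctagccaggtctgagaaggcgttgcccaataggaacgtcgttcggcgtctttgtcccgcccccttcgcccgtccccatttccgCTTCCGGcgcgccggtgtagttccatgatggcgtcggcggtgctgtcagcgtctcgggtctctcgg
Atp5k: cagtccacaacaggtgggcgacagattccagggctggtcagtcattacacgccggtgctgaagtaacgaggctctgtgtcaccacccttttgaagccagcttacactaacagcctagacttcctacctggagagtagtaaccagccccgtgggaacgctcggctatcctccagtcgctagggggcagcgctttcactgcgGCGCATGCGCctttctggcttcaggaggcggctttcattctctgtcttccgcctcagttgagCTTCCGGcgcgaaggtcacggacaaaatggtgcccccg
Ndufa4: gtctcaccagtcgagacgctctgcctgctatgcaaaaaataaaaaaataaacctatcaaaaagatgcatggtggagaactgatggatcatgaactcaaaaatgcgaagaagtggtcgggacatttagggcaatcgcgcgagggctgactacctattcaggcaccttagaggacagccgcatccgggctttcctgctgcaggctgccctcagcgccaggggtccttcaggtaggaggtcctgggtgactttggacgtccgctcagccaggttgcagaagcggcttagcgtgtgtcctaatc
Cox7a1: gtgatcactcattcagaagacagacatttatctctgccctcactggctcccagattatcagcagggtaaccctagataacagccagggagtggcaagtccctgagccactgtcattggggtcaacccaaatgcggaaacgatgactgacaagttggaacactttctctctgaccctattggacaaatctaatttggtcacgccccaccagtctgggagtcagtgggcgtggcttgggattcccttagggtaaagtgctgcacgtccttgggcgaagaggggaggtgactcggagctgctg

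Such promoters were found for 71 of the 88 nuclear members and searched on both strands. Shares are of genes, where a gene counted if any of its promoters held a match. The core motif of NRF1 (nuclear respiratory factor 1, a regulator of respiratory chain genes) has 1 free base. It stood in 23.9% of the 71, against 5.19% of all 27025 genes with a promoter and 10.3% of the 11841 of these with at least 50 UMIs. The stricter form of the NRF1 motif, with that base fixed and so contained in the core, stood in 9.86% of the members, against 1.07% of all these genes and 2.09% of those with at least 50 UMIs. CCGGAAG, an ETS-family site of the kind bound by GABPA (also called NRF2), stood in 23.9% of the members, against 9.93% of all these genes and 18.4% of those with at least 50 UMIs. AAGATGGC, bound by YY1, stood in 14.1% of the members, against 3.19% and 4.83%. TATAAA, the TATA box, stood in 9.86%, against 15.7% and 9.39%. Ribosomal protein genes gave a further comparison, with 69 mitochondrial (Mrpl, Mrps) and 76 cytosolic genes (Rpl, Rps). The ETS-family site stood in 37.7% and 32.9% of these, both above the members. YY1 matches stood in 17.4% and 7.89%, the NRF1 core in 18.8% and 7.89%, and its stricter form in 4.35% and 2.63%. ETS-family and YY1 matches thus did not set the members apart from mitochondrial ribosomal protein genes. The NRF1 core stood in 17 of 71 members against 13 of 69 mitochondrial ribosomal protein genes, and its stricter form in 7 against 3. These small differences were not tested. A match is a run of letters and was not tested as a binding site.

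The mitochondrial members have no promoters of their own. They lie end to end on the mitochondrial chromosome, are transcribed as long precursors, and are cut apart afterwards. In the GENCODE M21 annotation of GRCm38, mt-Atp8 (chrM:7766-7969) and mt-Atp6 (chrM:7927-8607) share 43 bases on the plus strand. On the same strand mt-Nd4l and mt-Nd4 share 7, and mt-Atp6 and mt-Co3 share 1. UMIs in these same-strand overlaps can be assigned to either gene or to none. A further overlap, of mt-Nd5 and mt-Nd6, has 14 bases on opposite strands. The stretch chrM:7887-8009, plus strand, is shown for the longest of these overlaps, with the shared bases in capitals.
mt-Atp8 and mt-Atp6: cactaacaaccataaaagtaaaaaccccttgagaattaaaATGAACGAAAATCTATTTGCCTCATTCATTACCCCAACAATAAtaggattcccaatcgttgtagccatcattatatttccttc

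In tumor LEC the 13 mitochondrial members took a smaller share of the RNA than the nuclear members, while in BEC they took the larger share. The mitochondrial share of UMIs in LEC was 1.67% [1.67 to 1.68] in Cre plus and 2.19% [2.17 to 2.21] in Cre minus, and the nuclear share 2.09% [2.09 to 2.10] in Cre plus and 2.32% [2.29 to 2.34] in Cre minus. The log2 ratio of mitochondrial to nuclear UMIs, which does not depend on the scaling, was −0.32 [−0.33 to −0.31] in Cre plus LEC and −0.08 [−0.10 to −0.06] in Cre minus LEC. In BEC the mitochondrial share was 2.11% in Cre plus and 2.94% in Cre minus, the nuclear share 1.95% and 1.69%, and the log2 ratio 0.11 and 0.80. Melanoma barcodes carried far more of both: 3.65% mitochondrial and 6.29% nuclear in Cre plus (log2 ratio −0.78), 4.06% and 6.61% in Cre minus (−0.70). Macrophages and monocytes had log2 ratios of 0.08 in Cre plus and 0.01 in Cre minus, close to even shares, although the Cre minus class carried 2039 CPM of melanoma markers against 77.0 CPM in Cre plus. Pericytes and fibroblasts had −0.62 in Cre plus and −0.61 in Cre minus, from 29 and 19 barcodes. The difference between these log2 ratios, LEC minus BEC, was −0.43 in Cre plus and −0.88 in Cre minus. LEC minus melanoma it was 0.46 and 0.62.

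**Figure D1:**
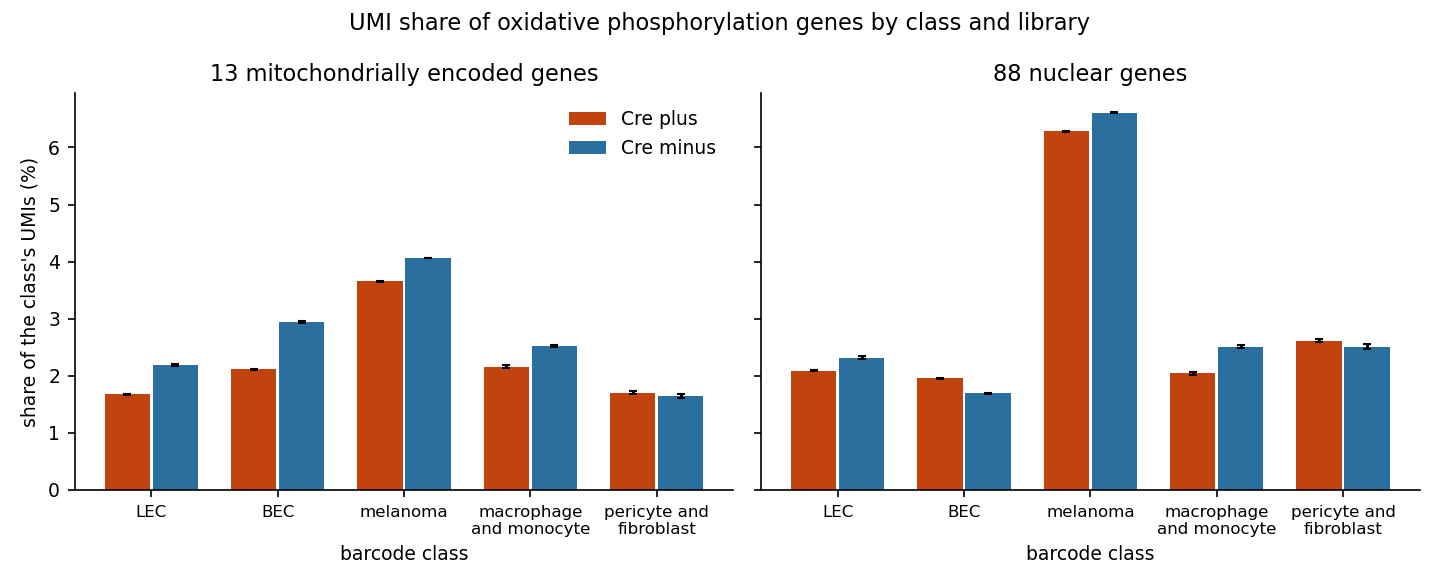
Share of UMIs (%) from the 13 mitochondrial and the 88 nuclear members in each marker class, with Cre plus left of Cre minus and bars for exact 95% intervals of the counts. Nuclear shares of 6.29% in Cre plus melanoma and 6.61% in Cre minus melanoma stand above every other class, and BEC are the class with the mitochondrial share furthest above the nuclear one.

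The spread between barcodes of a class was wider than the gap between libraries. In Cre plus LEC the middle 50% of barcodes ran from 1.09% to 2.76% mitochondrial UMIs (median 1.69%), and in Cre minus LEC from 1.40% to 3.34% (median 2.17%). For the nuclear members the quartiles were 1.68% and 2.95% in Cre plus LEC (median 2.24%), and 2.08% and 3.38% in Cre minus LEC (median 2.80%). Cre minus LEC thus had the higher median for both genomes, with quartile ranges that overlap. The 10% limit on the mitochondrial share also bore on the classes unequally. Before it, 5.88% [4.29 to 7.84] of Cre plus LEC barcodes and 10.4% [6.45 to 15.6] of Cre minus LEC barcodes were at or over 10%, and for BEC 7.54% in Cre plus and 24.3% in Cre minus. With no limit the mitochondrial share was 1.81% in Cre plus LEC and 2.85% in Cre minus LEC, and 2.32% in Cre plus BEC and 4.19% in Cre minus BEC, so the lower value stayed with Cre plus in both classes.

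The balance of both genomes moved with Malat1. In Malat1-rich LEC the nuclear members took 1.93% of Cre plus and 1.47% of Cre minus UMIs, against 3.13% and 3.07% in Malat1-poor LEC. BEC showed the same gap, with 1.88% in Cre plus and 1.44% in Cre minus Malat1-rich barcodes, against 3.15% and 3.18% in Malat1-poor barcodes. The mitochondrial share did not follow in step: it was 1.63% in Cre plus and 1.85% in Cre minus Malat1-rich LEC, against 1.95% and 2.49% in Malat1-poor LEC, but in BEC it was 2.15% and 3.15% in Malat1-rich barcodes, against 1.5% and 1.67% in Malat1-poor barcodes. Over all depths the log2 ratio was therefore higher in Malat1-rich barcodes in each of the 3 large classes and both libraries: −0.24 in Cre plus and 0.34 in Cre minus LEC, against −0.69 and −0.30 in Malat1-poor LEC, and 0.19 and 1.12 in BEC, against −1.07 and −0.93. In melanoma it was −0.68 in Cre plus and −0.55 in Cre minus Malat1-rich barcodes, against −1.47 and −1.63. The order of LEC and BEC turned within Malat1-poor barcodes, where LEC minus BEC was 0.39 in Cre plus and 0.62 in Cre minus. There were 427 Malat1-rich LEC barcodes in Cre plus, against 36 in Cre minus.

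**Figure D2:**
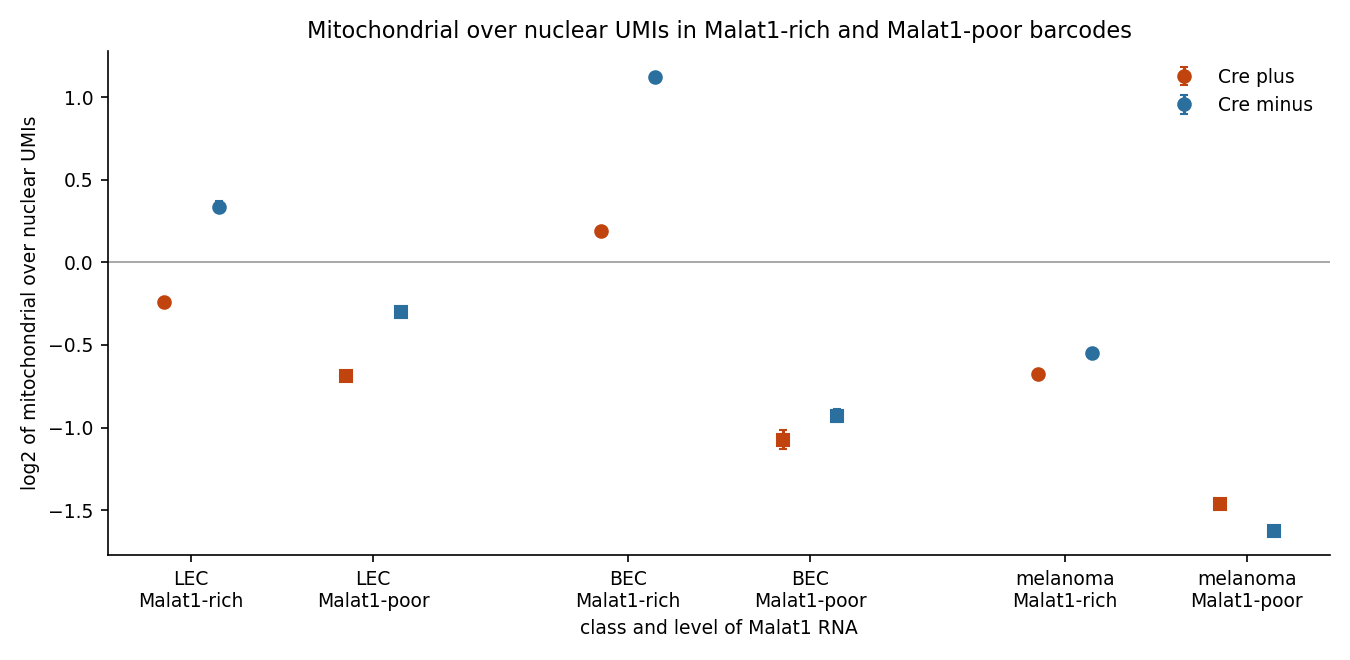
Log2 ratio of mitochondrial to nuclear member UMIs by class and library, with circles for Malat1-rich and squares for Malat1-poor barcodes and bars for 95% intervals of the counts. In LEC, BEC and melanoma the circles lie above the squares in both libraries, from −0.24 against −0.69 in Cre plus LEC to 1.12 against −0.93 in Cre minus BEC.

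Member by member, the lower nuclear share of Malat1-rich endothelial barcodes ran through most of the list. In LEC, 49 of the 84 nuclear members measured (at least 50 UMIs over both sides) were over 1.5-fold lower in Malat1-rich than in Malat1-poor barcodes of Cre plus, where 5.08% of all genes were, with a median log2 ratio of −0.63 for the members and 0.82 for all genes. In Cre minus LEC it was 57 of 76, where 15.8% of all genes were, with medians of −0.99 and 0.76. In BEC it was 49 of 83 in Cre plus, where 10.6% of all genes were, and 61 of 79 in Cre minus, where 15.7% were. In melanoma 3 of 86 were over 1.5-fold lower in Cre plus, where 1.77% of all genes were, and 0 of 86 in Cre minus, where 2.13% were. Cytosolic ribosomal protein genes moved the same way: they took 13.9% of Cre plus and 9.35% of Cre minus UMIs in Malat1-rich LEC, against 25.3% and 27.2% in Malat1-poor LEC, and 12.1% and 8.38% in Malat1-rich BEC, against 21.6% and 23.1% in Malat1-poor BEC.

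The balance also differed with depth, and not alike in every class. Among Malat1-rich BEC, barcodes of 5000 to 20000 UMIs had log2 ratios of 1.85 in Cre plus (50 barcodes) and 2.08 in Cre minus (93 barcodes), while those with at least 20000 UMIs had −0.14 (79 barcodes) and 0.34 (31 barcodes). Malat1-rich Cre plus LEC had 1.26 at 5000 to 20000 UMIs, from 3.04% mitochondrial and 1.26% nuclear UMIs in 91 barcodes, and −0.43 at 20000 UMIs and more, from 1.48% and 2.0% in 309 barcodes. Among Malat1-rich barcodes of 5000 to 20000 UMIs the mitochondrial genes thus took more than the nuclear ones in these 3 endothelial groups, and at 20000 UMIs and more they did so in Cre minus BEC only. Malat1-rich Cre minus melanoma ran the other way, with −2.0 at 1000 to 5000 UMIs, −1.35 at 5000 to 20000 and −0.54 at 20000 and more, and Malat1-poor barcodes of the same depths had −1.22, −1.43 and −1.75. The higher ratio of Malat1-rich melanoma thus held in the deep bin, where Cre plus melanoma had −0.67 against −1.44 in Malat1-poor barcodes, and turned in the shallow one. Endothelial bins with both kinds of barcode kept it: Cre plus LEC had 0.43 in Malat1-rich against 0.09 in Malat1-poor barcodes at 1000 to 5000 UMIs and 1.26 against −0.73 at 5000 to 20000, and Cre minus BEC had 2.08 against −0.92 at 5000 to 20000. When every barcode was thinned to 2000 UMIs, those with more mitochondrial UMIs had fewer nuclear member UMIs in Malat1-rich endothelium. Spearman's rho across barcodes was −0.39 in Cre plus LEC (412 barcodes) and −0.49 in Cre minus LEC (35 barcodes), −0.62 and −0.65 in BEC (136 and 137 barcodes), and −0.02 and −0.08 in melanoma (194 and 326 barcodes). Barcodes of 1 library share its cells' handling and sum to a fixed total, so these are descriptions.

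Set against melanoma in the same libraries, LEC had lower levels of nearly every nuclear member. Of the nuclear members measured, 82 of 87 were over 1.5-fold lower in Cre plus LEC, where 25.9% of all genes were, and 80 of 86 in Cre minus LEC, where 30.4% were. The median log2 ratio was −1.31 in Cre plus and −1.31 in Cre minus, against 0.21 and 0.02 over all genes. In Cre plus the medians by complex were −1.44 for the nuclear genes of complex I, −1.14 for complex III, −1.73 for complex IV, −1.5 for complex V and −0.92 for the complex I assembly factors. In Cre minus they were −1.44 for complex I, −1.15 for complex III, −1.34 for complex IV, −1.46 for complex V and −0.98 for the assembly factors, so complexes I and V and, in Cre plus, complex IV lay furthest below melanoma.

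Ndufa4 lay among the furthest below melanoma, with 347 CPM in Cre plus LEC against 2679 CPM in Cre plus melanoma (log2 −2.95 [−2.99 to −2.91]), and 288 CPM in Cre minus LEC against 2808 CPM in Cre minus melanoma (−3.28 [−3.41 to −3.16]). Cox5b, a structural subunit of complex IV, had 377 CPM in Cre plus LEC against 2291 CPM in melanoma, and 422 against 2345 CPM in Cre minus (log2 −2.61 and −2.47). Ndufb9, an accessory subunit of complex I, had 246 against 1316 CPM in Cre plus and 227 against 1425 CPM in Cre minus (−2.42 and −2.65). CPM levels are not divided by length, since a 3′ library counts molecules at their ends. Uqcrq, the ubiquinone-binding subunit and most abundant nuclear member of complex III, had 373 CPM in Cre plus LEC against 1767 CPM in melanoma, and 406 against 1901 CPM in Cre minus (−2.24 and −2.23). Atp5b, the catalytic β subunit of ATP synthase, had 563 against 1531 CPM in Cre plus and 714 against 1593 CPM in Cre minus (−1.44 and −1.16).

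Cox7a1, known as the heart and muscle isoform of a complex IV subunit, stood apart: 11 UMIs in Cre plus LEC and 3 in Cre minus LEC, or 0.68 and 1.75 CPM, against 75.8 and 105 CPM in melanoma of Cre plus and Cre minus (log2 −6.80 [−7.80 to −5.96] and −5.91 [−8.18 to −4.36]). At 2000 UMIs per barcode it was detected in 0.153% of Cre plus LEC and 0% of Cre minus LEC barcodes (0 of 168, which allows up to 1.79% of barcodes with a UMI at that depth), against 14.6% and 21.3% in melanoma. Unthinned shares were 1.31% and 1.74% in LEC, at median depths of 18158.5 and 6000 UMIs, and 66.6% and 70.4% in melanoma, at 19482 and 17992.5. At the other end, Ndufa4l2, a form of Ndufa4 induced by hypoxia, lay above melanoma at low counts, with 5.63 CPM in Cre plus LEC against 1.71 CPM in melanoma (log2 1.72 [1.24 to 2.21]) and 4.66 against 2.83 CPM in Cre minus (0.72 [−0.52 to 1.73], from 8 LEC UMIs). Few LEC barcodes carried it: 27 of the 91 Cre plus UMIs lay in 1 barcode, without which the level was 3.97 CPM. Unthinned, Ndufa4l2 was detected in fewer LEC than melanoma barcodes, 2.92% and 4.07% against 10.4% and 13.1%. At 2000 UMIs per barcode these shares were 1.22% and 1.19% against 0.696% and 0.674%. Next came Cox7a2l, a factor that joins complexes III and IV into supercomplexes, with 241 CPM in Cre plus LEC against 286 CPM in melanoma and 320 against 328 CPM in Cre minus (log2 −0.25 [−0.30 to −0.20] and −0.04 [−0.16 to 0.09]). Ndufa3, an accessory subunit of complex I, had −0.64 and −0.43, and the assembly factor Ndufaf6 −0.46 and −0.79.

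The mitochondrial genes were lower in LEC than in melanoma too, but unevenly. Their sum had a log2 ratio of −1.13 in Cre plus and −0.89 in Cre minus. Over 1.5-fold lower were 11 of 13 genes for Cre plus, where 25.9% of all genes were, and 10 of 13 for Cre minus, where 30.4% were. mt-Cytb, the mitochondrial gene of complex III, was lowest, with 1673 CPM in Cre plus LEC against 5731 CPM in melanoma and 2302 against 6788 CPM in Cre minus (−1.78 and −1.56). mt-Co3, of complex IV, was near melanoma levels, with 2518 against 3309 CPM in Cre plus and 3485 against 3897 CPM in Cre minus (−0.39 and −0.16). mt-Co1 had −0.64 and −0.28. mt-Nd6, alone among the 13 in lying on the other strand, had −0.27 in Cre plus and 0.65 in Cre minus, where its direction differed between the libraries.

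**Figure D3:**
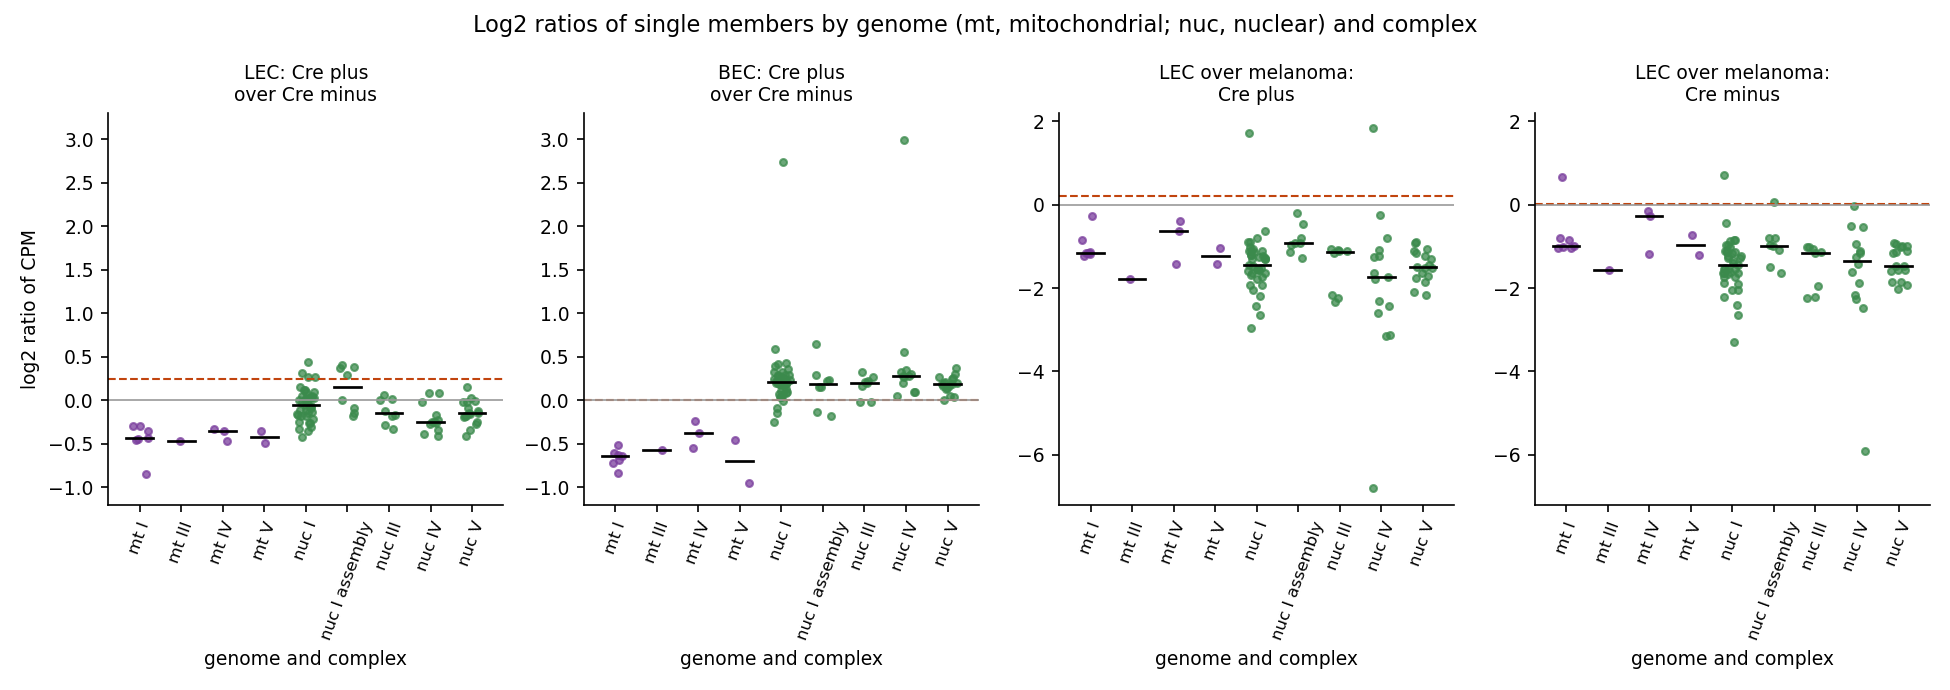
Log2 ratio of CPM for each mitochondrial and nuclear member measured, in LEC and in BEC for Cre plus over Cre minus (left panels) and for LEC over melanoma in each library (right panels), with black bars for the median of each group of members and dashed lines for the median of all genes. Against melanoma the members lie almost wholly below the dashed line, and in BEC the mitochondrial members lie below 0 while 76 of 84 nuclear members lie above it.

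Among the mitochondrial genes, the proportions differed with the class of cell in both libraries. These pairs were chosen after their values were seen. LEC had 0.45 mt-Cytb UMIs per mt-Co1 UMI in Cre plus and 0.49 in Cre minus, while BEC had 0.81 and 1.02 and melanoma 1.00 and 1.19. Within Malat1 and depth strata the LEC values ran from 0.37 to 0.61 and the BEC values from 0.71 to 1.03, so they did not overlap. For a further pair, mt-Nd1 per mt-Co1, they did, with 0.22 to 0.45 in LEC and 0.33 to 0.54 in BEC. Pericytes and fibroblasts had 0.95 and 1.03, and macrophages 0.44 and 0.73. mt-Co3 per mt-Atp6 UMI separated melanoma instead, with 0.86 in Cre plus LEC, 0.94 in Cre minus LEC, and 0.86 and 0.92 in BEC, against 0.42 and 0.46 in melanoma, and the strata ran from 0.83 to 0.95 in both kinds of endothelium and from 0.42 to 0.57 in melanoma. mt-Co1 made up 22.0% and 21.5% of the 13-gene sum in LEC, 17.3% and 14.6% in BEC, and 15.7% and 14.1% in melanoma. mt-Cytb made up 9.99% and 10.5% in LEC, 14.0% and 14.9% in BEC, and 15.7% and 16.7% in melanoma.

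**Figure D4:**
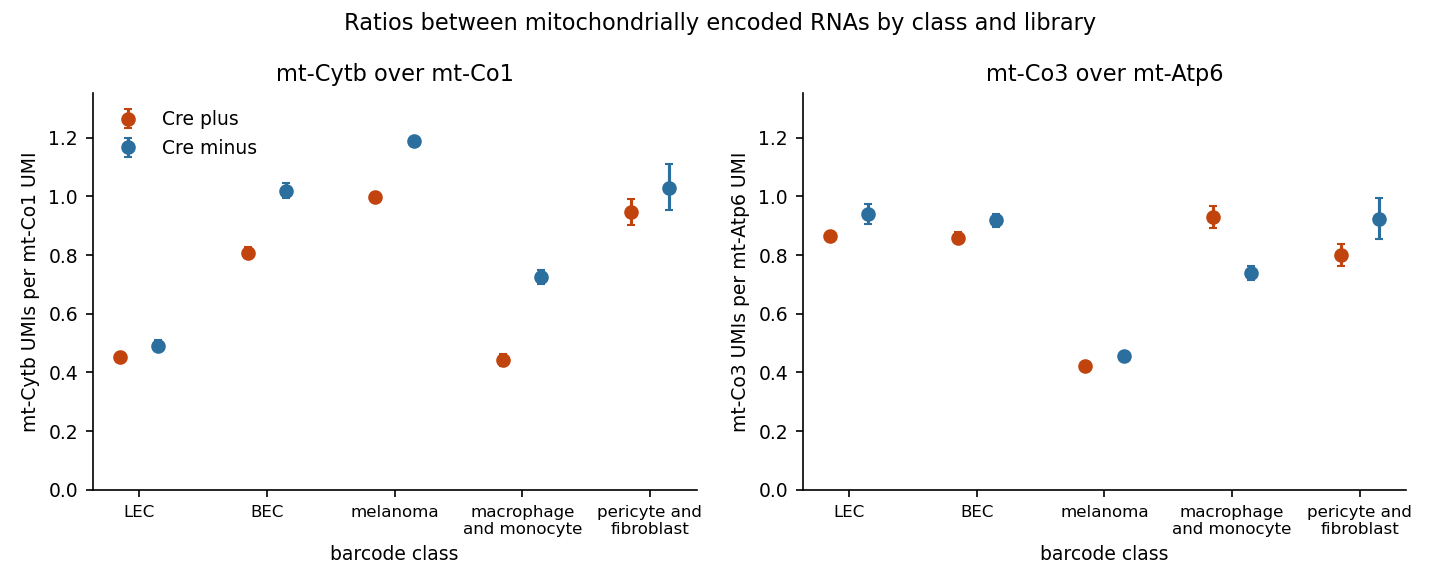
UMIs of mt-Cytb per UMI of mt-Co1 and of mt-Co3 per UMI of mt-Atp6, by class and library, over all barcodes of the class, with Cre plus left of Cre minus and bars for 95% intervals of the counts. LEC lie at 0.45 and 0.49 on the mt-Cytb panel, against 0.81 and 1.02 in BEC, and at 0.86 and 0.94 on the mt-Co3 panel, against 0.42 and 0.46 in melanoma.

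Set against BEC, the other endothelium of the sort, LEC had fewer mitochondrial and slightly more nuclear member UMIs. The mitochondrial sum had a log2 ratio of −0.34 in Cre plus and −0.42 in Cre minus, with 11 of 13 genes below 0 in each library. mt-Cytb was lowest, with 1673 CPM in Cre plus LEC against 2949 CPM in BEC and 2302 against 4376 CPM in Cre minus (−0.82 and −0.93), while mt-Co1 had a log2 ratio of 0.01 [−0.01 to 0.04] in the Cre plus library and 0.13 [0.09 to 0.17] in the Cre minus library. Of the 13, 1 in Cre plus and 5 in Cre minus were over 1.5-fold lower, where 13.4% and 26.5% of all genes were. The nuclear median was 0.11 in Cre plus, with 64 of 84 members above 0, and 0.45 in Cre minus, with 75 of 81 above 0, against 0.14 and −0.16 over all genes. No nuclear member was over 1.5-fold higher in Cre plus, where 21.3% of all genes were, and 18 were in Cre minus, where 14.8% were. The nuclear median thus lay just under that of all genes in Cre plus and above it in Cre minus, a difference between libraries that was not tested. Within Malat1-poor barcodes the directions turned, since the mitochondrial share was 1.95% in Cre plus LEC and 2.49% in Cre minus LEC against 1.5% and 1.67% in BEC, and the nuclear share 3.13% and 3.07% against 3.15% and 3.18%.

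The nuclear members that were lower in LEC were few. Ndufa8, an accessory subunit of complex I, had 156 CPM in Cre plus LEC against 239 CPM in BEC, and 143 against 201 CPM in Cre minus (log2 −0.62 [−0.72 to −0.52] and −0.50 [−0.72 to −0.28]). Ndufa4 had 347 against 458 CPM and 288 against 460 CPM (−0.40 and −0.67). Ndufb3 (−0.05 and −0.05) and the assembly factor Ndufaf7 (−0.06 and −0.48) had intervals that include 0. The highest on the same side in both libraries were the assembly factor Ndufaf2 with 0.53 and 0.83, Atp5o, the subunit that links the catalytic head of ATP synthase to its stalk, with 0.47 and 0.62, the acyl carrier protein Ndufab1 with 0.47 and 0.61, and Ndufaf5 with 0.41 and 0.41, whose intervals include 0. The cytosolic ribosomal protein genes, which were not members, had medians of 0.29 in Cre plus and 0.81 in Cre minus.

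Between genotypes, the mitochondrial genes of LEC were lower in Cre plus. Their sum had a log2 ratio of −0.39 [−0.40 to −0.37] over Cre minus, and all 13 lay below 0, from −0.30 for mt-Nd1 and mt-Nd3 to −0.85 for mt-Nd6. mt-Nd6 had 56.8 CPM in Cre plus LEC against 102 CPM in Cre minus LEC (−0.85 [−1.08 to −0.60]) and was the single mitochondrial gene over 1.5-fold lower, where 2.83% of all genes were. mt-Co1 had 3681 CPM in Cre plus LEC and 4698 CPM in Cre minus LEC (−0.35), and mt-Co3 had 2518 and 3485 CPM (−0.47). The nuclear median was −0.11 in the same cells, with 55 of 84 members below 0. The interval lay below 0 for 34 members, where it did for 7.21% of all genes, and above 0 for 4, where it did for 27.6%. No nuclear member was over 1.5-fold higher or lower, where 21.8% and 2.83% of all genes were. The median of all LEC genes was 0.25, so relative to it the nuclear members lay at −0.36 and the mitochondrial ones at −0.68. With CPM counted without mitochondrial UMIs the nuclear median was −0.12, and without ribosomal protein UMIs too it was −0.18, a shift shared by every gene.

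By complex, the nuclear medians in LEC were −0.05 for complex I, −0.15 for complex III, −0.25 for complex IV with 10 of 12 members below 0, −0.14 for complex V with 15 of 17 below 0, and 0.15 for the assembly factors. The lowest were Cox7a2l with 241 CPM in Cre plus LEC and 320 CPM in Cre minus LEC (log2 −0.41 [−0.54 to −0.28]), Atp5mpl, a small subunit of ATP synthase, with 282 and 375 CPM (−0.41 [−0.53 to −0.29]), Ndufa3 with 216 and 288 CPM (−0.42 [−0.55 to −0.28]) and Cox4i1, the ubiquitous form of a regulatory subunit of complex IV, with 801 and 1018 CPM (−0.35 [−0.42 to −0.27]). The highest were Ndufs7, an iron-sulphur core subunit of complex I, with 117 CPM in Cre plus LEC and 86.8 CPM in Cre minus LEC (0.44 [0.19 to 0.69]), Ndufaf8 with 54.2 and 41.4 CPM (0.39 [0.04 to 0.76]), Ndufa4 with 347 and 288 CPM (0.27 [0.14 to 0.40]) and Atp5g3, a ring subunit of ATP synthase, with 268 and 241 CPM (0.16 [0.01 to 0.30]).

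The LEC result depended on which barcodes were compared. Within Malat1-rich LEC the mitochondrial sum was −0.18 and the nuclear median 0.38, with 74 of 83 members above 0 and 13 over 1.5-fold higher, where 9.26% of all genes were and the median of all genes was −0.09. That comparison rests on 36 Cre minus barcodes. Within Malat1-poor LEC the mitochondrial sum was −0.35 and the nuclear median 0.05, and at 5000 to 20000 UMIs they were 0.14 and −0.18. Thinned to 2000 UMIs per barcode they were −0.26 and −0.17. The bin of 5000 to 20000 UMIs held Malat1-rich barcodes in unequal parts, 91 of 219 for Cre plus and 17 of 92 for Cre minus. In its Malat1-poor barcodes the mitochondrial sum was −0.19 and the nuclear median 0.12, and in Malat1-poor barcodes of 1000 to 5000 UMIs they were 0.078 and 0.014. The nuclear direction thus turned within either Malat1 stratum. The mitochondrial sum stayed below 0 within either stratum and when thinned, and lay above 0 in the mixed bin of 5000 to 20000 UMIs and in the shallow Malat1-poor one. The genotypes also filled different clusters of LEC, made without the members' own counts: cluster 9 held 398 of the 686 Cre plus LEC and 30 of the 172 Cre minus LEC, and cluster 2 held 221 and 131. Beyond these values, depth and Malat1 cannot be told apart from the genotype in LEC.

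In BEC the genomes went in opposite directions. The mitochondrial sum was −0.47 [−0.49 to −0.46] in Cre plus over Cre minus, with 13 of 13 genes below 0 from −0.95 for mt-Atp8 to −0.23 for mt-Co1, and 7 over 1.5-fold lower, where 5.80% of all genes were. mt-Atp8, of ATP synthase, had 85.1 CPM in Cre plus BEC and 164 CPM in Cre minus BEC, and mt-Nd2, of complex I, had 895 and 1477 CPM (−0.72 [−0.78 to −0.66]). The nuclear median in BEC was 0.20, with 76 of 84 members above 0, against 0.00 over all genes. The interval lay above 0 for 52 members, where it did for 18.0% of all genes, and below 0 for none, where it did for 17.6%. By complex, the medians were 0.21 for complex I, 0.20 for complex III, 0.28 for complex IV, 0.19 for complex V and 0.19 for the assembly factors. Cox7a2l had 221 CPM in Cre plus BEC and 151 CPM in Cre minus BEC (0.55 [0.39 to 0.72]), and Ndufs3, a core subunit of complex I, 103 and 68.8 CPM (0.59 [0.35 to 0.83]). Those the naming rule places lowest (Atp5b, Atp5k, Atp5mpl and Atp5o, by alphabetical order among members whose interval includes 0) had 0.01, 0.13, 0.04 and 0.05.

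Of the 4 BEC members over 1.5-fold higher, where 7.02% of all genes were, Ndufa4l2 (2.74) and Cox4i2 (2.99) came from 1 barcode, and Ndufs3 and Ndufaf1 were the others. All 137 Ndufa4l2 UMIs and 56 of 58 Cox4i2 UMIs of Cre plus BEC lay in a single barcode of 326715 UMIs that also held 1305 pericyte and fibroblast marker UMIs. Without it their levels in Cre plus BEC were 0 and 0.49 CPM, against 4.65 and 1.66 CPM in Cre minus BEC, the BEC mitochondrial sum was −0.43 and the nuclear median 0.17. Pericyte and fibroblast markers summed to 308 CPM in Cre plus BEC and 8.97 CPM in Cre minus BEC. Malat1 bore on BEC as well: the mitochondrial sum was −0.55 and the nuclear median 0.36 in Malat1-rich BEC, against −0.16 and −0.0067 in Malat1-poor BEC, and at 5000 to 20000 UMIs they were −0.14 and −0.025. In Malat1-poor BEC of 1000 to 5000 UMIs both turned, to 0.15 and −0.049, from 33 Cre plus and 43 Cre minus barcodes. Melanoma had a mitochondrial sum of −0.15 and a nuclear median of −0.07 between the libraries.

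Tissue and condition isoforms followed cell class more than genotype. Ndufa4l2, which is induced by hypoxia, had 825 CPM in pericytes and fibroblasts of Cre plus and 805 CPM in those of Cre minus, against 5.63 and 4.66 CPM in LEC, 1.71 and 2.83 CPM in melanoma and 10.5 and 7.52 CPM in macrophages. In pericytes of Cre minus 154 of its 406 UMIs lay in 1 barcode. Without the barcode richest in Ndufa4l2 the pericyte levels were 804 CPM for Cre plus and 660 CPM for Cre minus. In macrophages of Cre plus all 15 UMIs lay in 1 barcode, and in those of Cre minus 13 of 14 did, without which the levels were 0 and 0.56 CPM. At 2000 UMIs per barcode it was detected in 82.1% of Cre plus and 68.4% of Cre minus pericyte barcodes, against 1.22% and 1.19% in LEC. Unthinned these were 93.1% and 89.5%, at median depths of 43442 and 17962 UMIs, against 2.92% and 4.07% in LEC. Ndufa4 had 140 and 133 CPM in the same pericytes, below its 347 and 288 CPM in LEC. Cox4i2, the oxygen-responsive form of Cox4, had 327 and 527 CPM in pericytes, against 3.71 and 3.50 CPM in LEC and 1.04 and 0.51 CPM in melanoma. A single barcode held 148 of the 266 Cre minus pericyte UMIs, and without the barcode richest in Cox4i2 its levels in pericytes were 300 CPM for Cre plus and 309 CPM for Cre minus. In Cre plus LEC the 91 Ndufa4l2 UMIs were in 20 of 686 barcodes, 27 of them in 1. Cox8b and Cox6a2, heart and muscle isoforms, had 0 or 1 UMI in each LEC library, against 1.65 and 1.62 CPM in Cre plus melanoma and 4.20 and 2.50 CPM in Cre minus melanoma. Cox6b2, a testis form, had 8.11 and 17.8 CPM in pericytes. In LEC it had 32 UMIs in Cre plus (1.80 CPM without its richest barcode) and 0 in Cre minus, which had fewer and shallower LEC barcodes. At 2000 UMIs per barcode it was detected in 0.153% of Cre plus LEC and 0% of Cre minus LEC barcodes (0 of 168, which allows up to 1.79%).

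**Figure D5:**
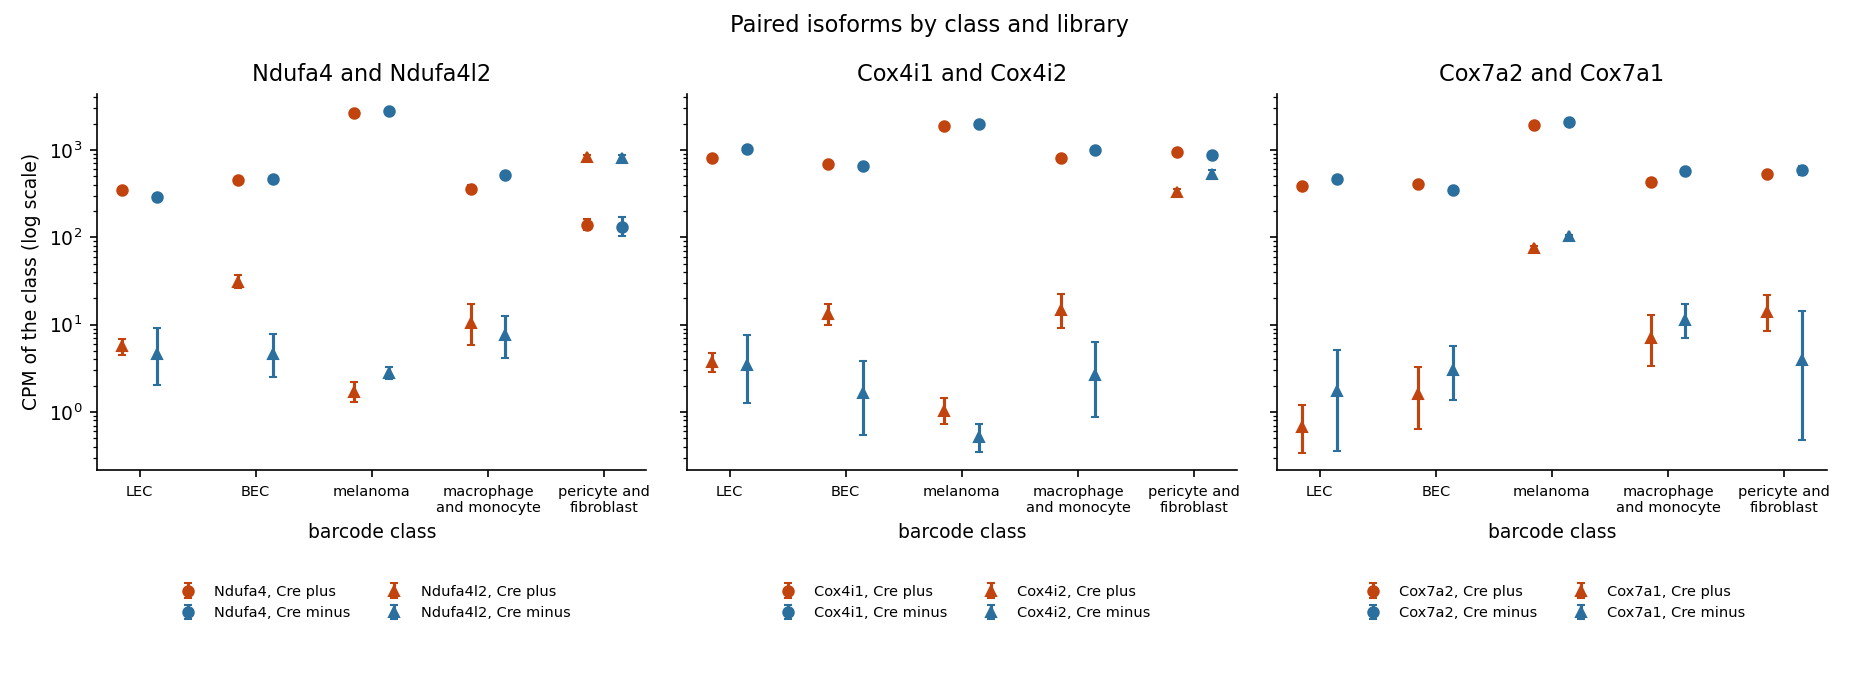
CPM of the common isoforms Ndufa4, Cox4i1 and Cox7a2 (circles) and of Ndufa4l2, Cox4i2 and Cox7a1 (triangles) by class, Cre plus left of Cre minus, on a log axis, with bars for 95% intervals of the counts. Ndufa4l2 and Cox4i2 stand at 825 and 327 CPM in Cre plus pericytes and fibroblasts and under 6 CPM in LEC, and Cox7a1 stands highest in melanoma, at 75.8 and 105 CPM.

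The other genes of respiration and fuel use were read from lists beside the members, with Cre plus over Cre minus medians in LEC. These stand beside a median over all genes of 0.25 in LEC and 0.00 in BEC. Succinate dehydrogenase, the nuclear-only complex II, had −0.09 over 4 genes, the electron carrier and unmatched genes (cytochrome c, the complex III subunit Cyc1 and the ATP synthase inhibitor Atpif1, whose symbols the prefixes miss) −0.01 over 3, assembly factors 0.28 over 37, genes of mitochondrial DNA expression 0.42 over 30, regulators of respiration 0.40 over 13, the TCA cycle 0.02 over 18, glycolysis −0.26 over 18, hypoxia genes 0.20 over 10, carriers and pores −0.03 over 13, mitochondrial ribosomal proteins 0.28 over 78 and cytosolic ribosomal proteins −0.25 over 88. Genes of the cell cycle lay at 0.77 over 20 and nuclear-retained RNAs at 0.15 over 3. In BEC the medians were 0.15 for succinate dehydrogenase, 0.25 for the same 3 carrier and unmatched genes, 0.16 for assembly factors, 0.06 for mitochondrial DNA expression, −0.11 for the regulators and −0.03 for the TCA cycle. They were 0.18 for glycolysis, 0.22 for hypoxia genes, 0.20 for carriers and pores, 0.30 for mitochondrial ribosomal proteins and 0.28 for cytosolic ones, with −0.08 for the cell cycle and −0.05 for nuclear-retained RNAs. The cytosolic ribosomal proteins thus had the sign of the nuclear members in both classes, −0.25 and 0.28, and glycolysis did too, −0.26 and 0.18. So did succinate dehydrogenase (−0.09 and 0.15), the carrier and unmatched genes (−0.01 and 0.25), and carriers and pores (−0.03 and 0.20).

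Against melanoma these lists were mostly lower in LEC. The medians were −1.22 in Cre plus and −1.19 in Cre minus for succinate dehydrogenase, −2.26 and −2.33 for the carrier and unmatched genes, −1.07 and −1.07 for the TCA cycle, −2.22 and −1.85 for glycolysis and −0.68 and −0.96 for mitochondrial ribosomal proteins, against −0.06 and 0.27 for cytosolic ribosomal proteins. Of 18 glycolysis genes, 17 were over 1.5-fold lower in each library, beside 25.9% of all genes in Cre plus and 30.4% in Cre minus. The regulators had medians of 0.56 and 0.19, with Ppargc1a, the coactivator that drives mitochondrial gene programs in some melanomas, at 1.80 CPM in Cre plus LEC against 994 CPM in melanoma and 8.74 against 926 CPM in Cre minus (−9.11 and −6.73), chosen after its values were seen.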

How the data were processed

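Sorted tumor cells were sequenced by a 3′ single-cell kit (v3.1), with 1 library per genotype. The authors deposited raw UMI counts, per the file headers, as whole numbers for each of 32285 genes in each barcode. Cell Ranger 7.0.0 and the mm10 build are named in the submitters' processing notes, and the sources used here do not give the annotation. Positions came from GENCODE M21 and promoters from RefSeq, matched by symbol (71 of 88 nuclear members).

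A barcode was gated into the class whose markers scored highest in it, with at least 3 markers detected, and stayed unassigned where another class came near. Doublets were not called, so mixed barcodes stayed in. Within each class of each library, UMIs were added up over barcodes and divided by the class total to give CPM. Ratios are log2 of CPM, Cre plus over Cre minus or LEC over the other class, with exact conditional binomial intervals, and shares have Clopper-Pearson intervals, both at 95%. The limit beside a share of 0 is 3 counts of the total. A gene was counted as measured in a comparison with at least 50 UMIs over both sides, and as past the threshold beyond 1.5-fold, with no test. The ratio and interval code was tested on simulated counts.

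Genes named are all 13 mitochondrial members, the 4 highest and 4 lowest nuclear members of each comparison by a fixed ranking, the most abundant nuclear member of complexes I, III, IV and V, and the listed isoforms. Any other is named as chosen after its values were seen, or because it completes a count of 4 (Ndufaf1). The members and lists were chosen with earlier results of these data known. Work used Python 3.11.15, numpy 2.4.6, scipy 1.17.1, pandas 2.3.3 and, for clusters, scanpy 1.11.5 and igraph 0.11.9.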

Additional observations from a re-analysis of the deposited data

Results flagged for a closer look

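Cre plus over Cre minus, the nuclear members lay below 0 in LEC and above 0 in BEC. Their sum had a log2 ratio of −0.15 in LEC and 0.21 in BEC, and the difference between the classes was not tested. The opposite signs did not hold within Malat1-rich barcodes, where the nuclear median was 0.38 in LEC and 0.36 in BEC, and in Malat1-poor barcodes it was 0.047 and −0.0067. Single genes were searched only among those named by the fixed rule, whose listed isoforms are mostly complex IV genes. Over all barcodes, intervals lay on opposite sides of 0 for Cox4i1 (−0.35 in LEC, 0.091 in BEC), Cox5b (−0.16, 0.28) and Cox6b1 (−0.27, 0.32). They also did for Cox7a2 (−0.25, 0.20), Cox7a2l (−0.41, 0.55) and Cox8a (−0.26, 0.35), all of complex IV. The others were Atp5g1 (−0.14, 0.20) and Atp5g2 (−0.16, 0.17), which encode ring subunits of ATP synthase, and Uqcrq (−0.12, 0.20) of complex III. Signs within Malat1 strata were not searched gene by gene. These differences were not tested either.

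Barcodes left out of every class also carried nuclear members. In those with at least 500 genes and 10% or more mitochondrial UMIs, nuclear members made up 3.67% of Cre plus and 3.77% of Cre minus UMIs, beside mitochondrial shares of 28.4% and 32.6%. In those with 50% or more haemoglobin UMIs the nuclear share was 0.131% in Cre plus and 0.111% in Cre minus, beside mitochondrial shares of 0.307% and 1.32%.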

How the results depend on the processing

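With 1 library per genotype, values without a test were followed under 19 alternatives, of which 7 were chosen after seeing the data (barcodes of 5000 to 20000 UMIs, or middle depth; Malat1-rich barcodes of that depth; deep Malat1-rich barcodes of at least 20000 UMIs; Malat1-poor barcodes of middle depth; shallow Malat1-poor barcodes of 1000 to 5000 UMIs; CPM without mitochondrial and ribosomal protein UMIs, or the reduced total; and BEC without the pericyte-marker barcode). Of 136 values, 45 stayed within the counting interval of the reported value (for a median, that of the member nearest to it), 76 moved further and 15 changed sign beyond it. The cause was not tested. The LEC mitochondrial sum, Cre plus over Cre minus was −0.39 and became −0.51 with the 20% cap, −0.65 with no cap, −0.36 at 1000 genes, −0.36 with the stricter gate, −0.35 in clusters, −0.27 as a mean over barcodes. It was also −0.26 thinned, −0.32 without cycling barcodes, −0.18 in Malat1-rich barcodes, −0.35 in Malat1-poor barcodes, −0.19 in Malat1-poor barcodes of middle depth, −0.46 with the reduced total. It changed sign to 0.14 at middle depth, 0.078 in shallow Malat1-poor barcodes. The LEC nuclear median was −0.11 and changed sign to 0.10 with the stricter gate, 0.38 in Malat1-rich barcodes, 0.047 in Malat1-poor barcodes, 0.12 in Malat1-poor barcodes of middle depth. The BEC mitochondrial sum was −0.47 and became −0.63 with the 20% cap, −0.85 with no cap, −0.39 in clusters, −0.30 as a mean over barcodes, −0.30 thinned, −0.68 without cycling barcodes. It was also −0.55 in Malat1-rich barcodes, −0.16 in Malat1-poor barcodes, −0.14 at middle depth, −0.14 in Malat1-rich barcodes of middle depth, −0.31 in deep Malat1-rich barcodes, −0.45 with the reduced total, −0.43 without the pericyte-marker barcode. It changed sign to 0.15 in shallow Malat1-poor barcodes. The BEC nuclear median was 0.20 and became 0.019 in clusters, 0.075 as a mean over barcodes, 0.070 thinned, 0.40 without cycling barcodes, 0.36 in Malat1-rich barcodes. It changed sign to −0.0067 in Malat1-poor barcodes, −0.025 at middle depth, −0.049 in shallow Malat1-poor barcodes. The log2 mitochondrial-to-nuclear ratio, LEC minus BEC in Cre plus was −0.43 and became −0.46 with the 20% cap, −0.46 with no cap, −0.45 with the stricter gate, −0.48 in clusters, −0.52 as a mean over barcodes. It was also −0.61 thinned, −0.36 without cycling barcodes, −1.19 at middle depth, −0.58 in Malat1-rich barcodes of middle depth, −0.29 in deep Malat1-rich barcodes, −0.52 without the pericyte-marker barcode. It changed sign to 0.39 in Malat1-poor barcodes, 0.36 in shallow Malat1-poor barcodes. The log2 mitochondrial-to-nuclear ratio, LEC minus BEC in Cre minus was −0.88 and became −0.94 with the 20% cap, −1.04 with no cap, −0.91 at 1000 genes, −0.79 with the stricter gate, −0.72 in clusters. It was also −0.84 as a mean over barcodes, −0.92 thinned, −1.30 without cycling barcodes, −0.79 in Malat1-rich barcodes, −1.64 at middle depth. It changed sign to 0.62 in Malat1-poor barcodes, 0.46 in shallow Malat1-poor barcodes, 0.48 in Malat1-poor barcodes of middle depth. The log2 mitochondrial-to-nuclear ratio, LEC minus melanoma in Cre plus was 0.46 and became 0.45 with the 20% cap, 0.44 with no cap, 0.55 with the stricter gate, 0.40 in clusters, 1.04 as a mean over barcodes, 1.03 thinned. It was also 0.53 without cycling barcodes, 0.44 in Malat1-rich barcodes, 0.78 in Malat1-poor barcodes, 1.84 at middle depth, 0.24 in deep Malat1-rich barcodes, 1.07 in shallow Malat1-poor barcodes, 0.86 in Malat1-poor barcodes of middle depth. The log2 mitochondrial-to-nuclear ratio, LEC minus melanoma in Cre minus was 0.62 and became 0.74 with the 20% cap, 0.67 with no cap, 0.88 with the stricter gate, 0.53 in clusters, 1.12 as a mean over barcodes, 1.08 thinned. It was also 0.66 without cycling barcodes, 0.89 in Malat1-rich barcodes, 1.33 in Malat1-poor barcodes, 1.27 at middle depth, 1.27 in shallow Malat1-poor barcodes, 1.00 in Malat1-poor barcodes of middle depth. The LEC nuclear median was also 0.014 in shallow Malat1-poor barcodes, within its interval. LEC minus melanoma kept its sign in every alternative run. No value is given for LEC comparisons in Malat1-rich depth bins of Cre minus, nor for Cre plus melanoma in Malat1-rich and Cre plus BEC in Malat1-poor barcodes of middle depth, because too few barcodes were left. No paired analysis was possible because each genotype has 1 library. Malat1-rich LEC of Cre minus are limited by their number (36 barcodes), and genes with few UMIs, such as Cox7a1 in LEC, by depth. Animals, tumors and sorts were pooled within a library, so variation among them cannot be seen.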

Other observations

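Barcodes with under 500 genes and under 50% haemoglobin UMIs numbered 326 in Cre plus and 429 in Cre minus. Mitochondrial members made up 80.8% and 90.5% of their UMIs, and nuclear members 0.614% and 0.433%.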
